A study of Homo sapiens with 16 samples.

Results

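Labelled ZC3H12A-knockout and wild-type H2023 cells were compared after growth in a stem-cell-enriched (oncosphere) culture. H2023 is an established human cell line of non-small cell lung cancer. The comparison rests on 4 of the 16 RNA sequencing libraries of the series, chosen by cell line and culture: 2 labelled wild-type and 2 labelled knockout, each harvested after 7 days. All 18227 genes of the deposited table were examined. The remaining libraries are the same contrast in H2023 grown for 3 days in normal culture (4 libraries) and A549, another lung cancer line (8 libraries). The titles name a single H2023 clone for both knockout libraries, so an effect of the edit cannot be told apart from other properties of that clone. Culture type and days in culture change together. Nothing in the labels says that replicates were separate cultures, so the p-values measure only the spread between libraries, which may be technical. Libraries came from 1 µg of total RNA, isolated with a ReliaPrep kit, by the stranded TruSeq mRNA protocol. In the oncosphere libraries between 14163 and 14392 genes reached 1 TPM (the length-scaled transcript abundance used throughout), and mitochondrially encoded genes held 23.8% to 25.6% of TPM. Sequencing depth is unknown, since TPM does not retain it.

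ZC3H12A encodes Regnase-1, an endoribonuclease that cleaves stem-loop structures in the mRNAs of inflammatory mediators and so limits how long those mRNAs last. Its own mRNA is among those it cleaves, and NF-kB, the transcription factor that drives many of the same mRNAs, induces it. Oncosphere cultures grow tumour cells as floating spheres without attachment and are used to enrich cells with stem-like properties. Acute-phase proteins, chemokines and the inhibitor-like regulator NFKBIZ are the kind of transcripts on which Regnase-1 and NF-kB are known to act in epithelia.

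The mRNA of the targeted gene was higher, not lower, in the libraries labelled knockout. ZC3H12A (ENSG00000163874, chromosome 1, 37474552 to 37484379 in GRCh38, + strand, protein-coding) stood at 32.54 and 26.41 TPM in the wild-type libraries and at 94.61 and 69.18 TPM in those labelled knockout. Both labelled-knockout libraries were thus above both wild-type libraries. This is a log2 fold change of 1.43 (standard error 0.15, limma, adjusted p = 0.00045). In normal culture ZC3H12A was at 26.78 and 29.85 against 41.48 and 41.54 TPM and was not called (log2 fold change 0.54, limma, adjusted p = 0.0835). A level of mRNA does not show whether the protein was lost, the edit was not examined, and the libraries are therefore called labelled knockout. Every direction below is that of labelled knockout relative to wild type.

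Of 18227 genes, 577 rose and 437 fell at an adjusted p under 0.05 in limma, fitted on log2(TPM + 1) with the spread pooled over all 16 libraries. The called share was 5.56% in either direction, 3.17% higher and 2.4% lower. In bulk RNA, fewer cells of a kind and less RNA per cell cannot be told apart. With libraries centred on their median gene the split was 426 higher and 639 lower, so the balance of rises and falls depends on the scaling. A difference of at least 1 on the log2 scale was reached by 188 of the genes that rose and 131 of those that fell, and one of at least 2 by 19 and 38. All 1014 called genes had groups that did not overlap, which was true of 47.5% of all genes. A fit restricted to the 4 libraries called 0 genes, with 2828 genes at an unadjusted p under 0.05 and a smallest adjusted p of 0.165. The authors' deposited table gave 816 genes with an adjusted p under 0.05 (5.07% of those with a value), and 562 of them were also called by limma. Leaving out 1 library gave 600 genes without wild-type replicate 1, 476 without wild-type replicate 2, 457 without labelled-knockout replicate 1 and 314 without labelled-knockout replicate 2.

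**Figure D1:**
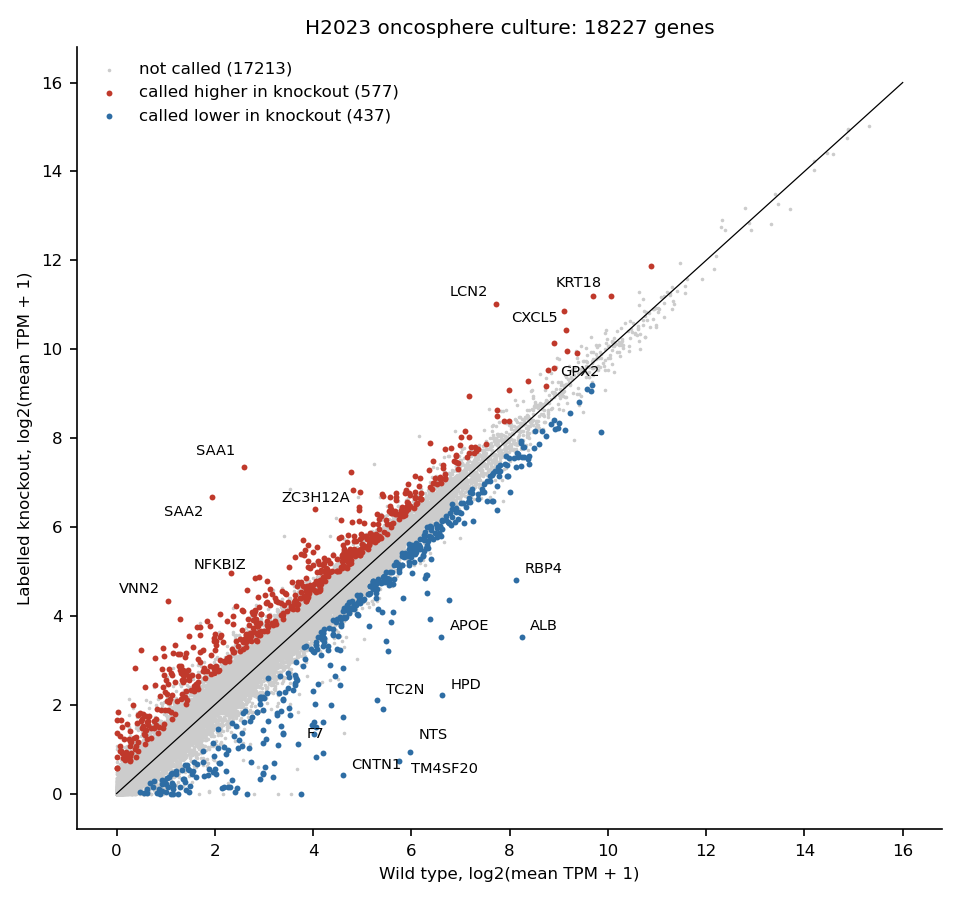
Mean TPM over 2 libraries of each gene in wild-type (horizontal axis) and labelled-knockout (vertical axis) H2023 oncosphere libraries, both as log2(mean TPM + 1), with the diagonal marking equality. The 577 genes called higher (red) and 437 called lower (blue) are coloured; SAA1, SAA2 and LCN2 lie far above the diagonal and ALB, TM4SF20 and CNTN1 far below it.

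The genes that rose most included acute-phase and epithelial defence genes, and those that fell most included the plasma proteins ALB, RBP4 and APOE and the clotting factors F5 and F7. Among genes reaching 5 TPM in either group, the 15 largest rises were SAA2, SAA1, VNN2, LCN2, PXDN, WFDC21P, ZG16B, KCNMA1, RFTN1, LINC01193, TSPAN1, TM4SF18, LINC01116, ACVRL1 and SLC43A3. The 15 largest falls included ALB, TM4SF20, NTS, HPD, CNTN1, RBP4, PPARGC1A, NLRP1, TC2N, AOX1, APOE, F5, SCG2 and F7. Each of the 30 genes with the largest changes also had an adjusted p under 0.05 in the authors' deposited table. That table rests on the same 4 libraries, and the 30 were chosen among limma calls with groups that do not overlap. The authors' adjusted p is therefore not separate support. In limma 14 of the 15 rises and 12 of the 15 falls were called in all 4 fits that left out 1 library.

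**Figure D2:**
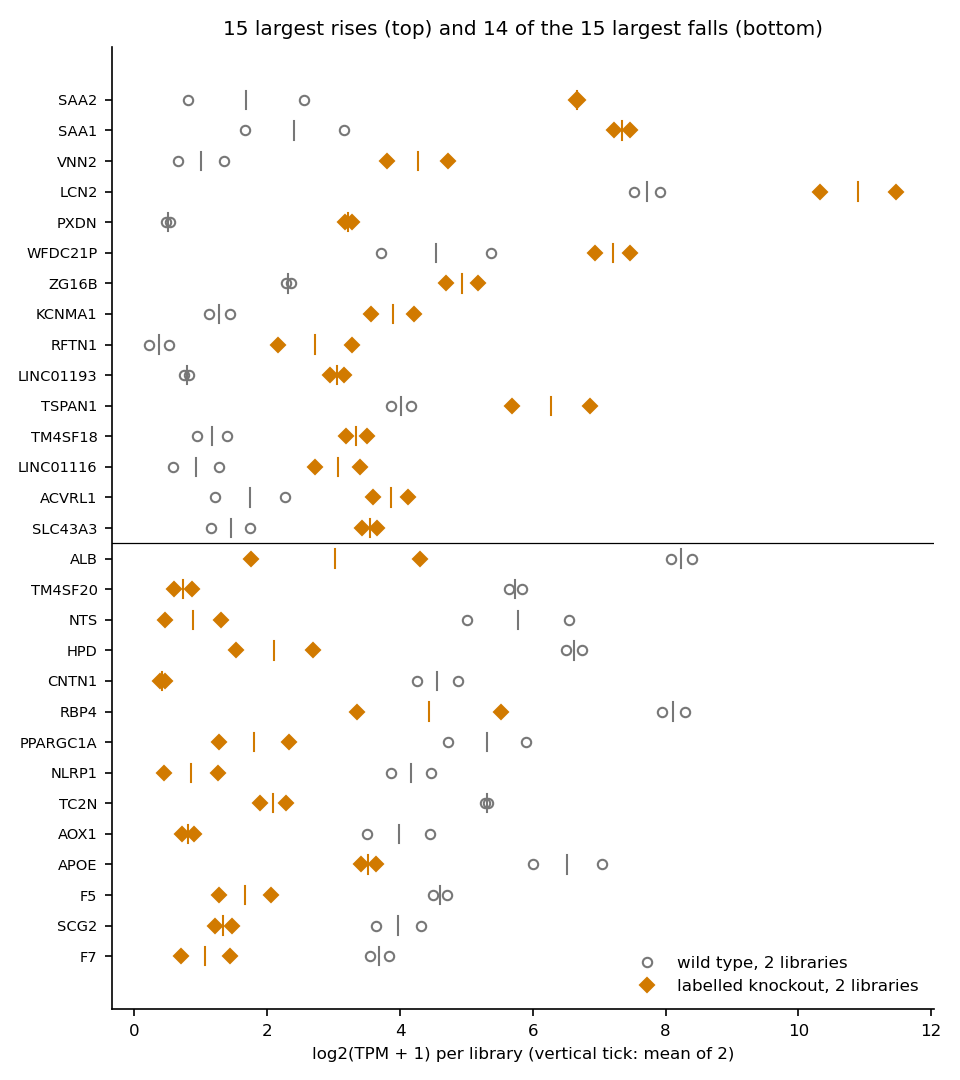
Expression of the 15 largest rises (top) and 14 of the 15 largest falls (bottom) in each of the 4 H2023 oncosphere libraries, as log2(TPM + 1); open circles are the 2 wild-type libraries, filled diamonds the 2 labelled-knockout libraries and vertical ticks their means. Genes were chosen to have groups that do not overlap, and the replicates of ALB, NTS and RBP4 are wide apart.

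The start regions of some inflammatory genes in this comparison carry the NF-kB consensus, and that of ALB carries a half-site of HNF1, a transcription factor that activates liver genes. The sequences below are the 250 bases before a RefSeq transcript start (GRCh38.p14), printed 5′ to 3′ on the gene's own strand. These 4 genes recur in the results that follow, and the windows were chosen because they hold a match. Another matching window of NFKBIZ, chr3:101849264-101849513 (+), is not shown. Capitals mark the match. For LCN2 the window is chr9:128149203-128149452 (+), for NFKBIZ the upstream start at chr3:101827740-101827989 (+), for CXCL5 chr4:73998678-73998927 (-) and for ALB chr4:73404037-73404286 (+).
LCN2: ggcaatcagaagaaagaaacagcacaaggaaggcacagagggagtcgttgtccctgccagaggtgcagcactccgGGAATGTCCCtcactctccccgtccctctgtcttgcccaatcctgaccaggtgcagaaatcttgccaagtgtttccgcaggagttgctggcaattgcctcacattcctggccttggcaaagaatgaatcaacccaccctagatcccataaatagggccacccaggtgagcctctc
NFKBIZ: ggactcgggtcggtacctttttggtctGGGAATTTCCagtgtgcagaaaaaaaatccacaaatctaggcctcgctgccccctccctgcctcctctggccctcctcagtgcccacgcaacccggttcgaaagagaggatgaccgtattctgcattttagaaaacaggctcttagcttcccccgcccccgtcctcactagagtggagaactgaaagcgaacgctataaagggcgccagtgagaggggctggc
CXCL5: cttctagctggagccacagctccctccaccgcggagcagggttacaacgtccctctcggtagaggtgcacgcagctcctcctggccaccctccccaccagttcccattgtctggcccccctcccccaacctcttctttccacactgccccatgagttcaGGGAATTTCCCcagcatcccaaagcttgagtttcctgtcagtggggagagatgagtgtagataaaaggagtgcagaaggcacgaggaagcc
ALB: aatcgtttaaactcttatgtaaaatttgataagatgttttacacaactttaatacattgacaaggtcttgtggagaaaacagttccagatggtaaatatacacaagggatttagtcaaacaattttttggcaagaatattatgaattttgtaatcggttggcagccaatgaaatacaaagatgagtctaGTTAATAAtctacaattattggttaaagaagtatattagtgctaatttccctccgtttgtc

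In CXCL5 the capitals hold 2 overlapping matches. Searched on both strands, the NF-kB consensus was in 5.21% of all 35116 RefSeq windows of this length and in 6.1% of the 17734 windows of genes tested. It was in 54 of the 642 windows (8.41%) of genes that rose and in 28 of the 534 windows (5.24%) of genes that fell. The HNF1 half-site GTTAATNA was in 2.19% of all windows, 1.48% of those of genes tested, 1.4% of those of genes that rose and 2.25% of those of genes that fell. The core of C/EBP, a family of acute-phase and liver regulators, TTNNGCAA, was in 9.05% of all windows, 6.76% of those of genes tested, 6.54% of those of genes that rose and 8.99% of those of genes that fell. RefSeq windows were found for 10 of the 15 largest rises and 12 of the 15 largest falls. Of these, LCN2 alone held the NF-kB consensus among the rises, and ALB and CNTN1 held the HNF1 half-site among the falls. The C/EBP core was held by LCN2 among the rises and by ALB, PPARGC1A and RBP4 among the falls. A match describes the letters in the window and is not evidence of binding.

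The median log2 fold change of 14 genes for the Regnase family and its partner decay factors was 0.38, beside 0.06 over all genes. Of them 3 rose and 0 fell, against 3.17% and 2.4% of all genes, the shares to set beside each list count below. Besides ZC3H12A these were TNIP1, which binds the ubiquitin-editing enzyme A20 and restrains NF-kB, and ZFP36L1, which directs decay of mRNAs with AU-rich elements. TNIP1 went from 47.13 and 86.31 to 112.51 and 166.86 TPM, a log2 fold change of 1.09 (limma, adjusted p = 0.0298). ZFP36L1 went from 42.33 and 58.55 to 106.69 and 107.56 TPM (log2 fold change 1.09, limma, adjusted p = 0.0235). TNIP1 was not called without wild-type replicate 1 or labelled-knockout replicate 2 (limma, adjusted p up to 0.182), and ZFP36L1 was called in a single such fit, that without wild-type replicate 2 (adjusted p up to 0.122 in the others).

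Among known Regnase-1 target mRNAs, 3 of 26 rose and 0 fell (all genes: 3.17% and 2.4%), with a median log2 fold change of 0.22. LCN2 encodes lipocalin-2, a secreted protein that withholds iron from bacteria by binding their siderophores. Its level was 183.25 and 239.91 TPM in wild type and 1281.08 and 2849.05 TPM in the labelled knockout, a 9.76-fold ratio of means. On the log2 scale the difference was 3.18 (standard error 0.49, limma, adjusted p = 0.00425). The labelled-knockout libraries differed widely from each other, yet the lower of them was still far above both wild-type libraries.

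NFKBIZ encodes IκBζ, a nuclear cofactor of NF-kB needed for a subset of inflammatory genes, LCN2 among them. It went from 4.30 and 7.80 to 24.78 and 31.32 TPM, a log2 fold change of 2.08 (standard error 0.25, limma, adjusted p = 0.000991). The third, CEBPD, encodes a transcription factor of the acute-phase response and went from 44.92 and 36.52 to 71.95 and 78.21 TPM. Its log2 fold change of 0.87 (limma, adjusted p = 0.044) was lost in all 4 fits with 1 library left out, where the adjusted p reached 0.183. The classical cytokine targets were not called: IL6 lay between 0.11 and 2.51 TPM in all 4 libraries and its groups overlapped. CXCL8, the neutrophil chemoattractant interleukin-8, was at 31.92 and 80.08 TPM in wild type and at 32.07 and 79.38 TPM in the labelled knockout. Replicates of CXCL8 differed far more than the groups did. PTGS2, the inducible cyclooxygenase, had a log2 fold change of -0.86 (limma, adjusted p = 0.19) with overlapping groups.

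The NF-kB list, made of subunits, inhibitors and feedback genes, had 1 of 20 members called. That member was RELA, the transactivating p65 subunit, at 36.91 and 40.24 TPM in wild type and 48.54 and 54.32 TPM in the labelled knockout (log2 fold change 0.40, limma, adjusted p = 0.0334). RELA lost its call in all 4 fits with 1 library left out (limma, adjusted p up to 0.182), on median-centred libraries and with the 8 H2023 libraries. With block medians of neighbouring genes subtracted, its log2 fold change was 0.17 (limma, adjusted p = 0.433), and its adjusted p in the authors' deposited table was 0.294. Of the 20 members 19 had a positive log2 fold change, and in 10 both labelled-knockout libraries lay above both wild-type libraries, beside 28.6% of all genes. Among the 10657 genes with a mean of at least 5 TPM, 59.4% were positive, the share to set beside each count of signs below. The list's median log2 fold change was 0.28, and 0.15 with block medians subtracted. The inhibitor NFKBIA, at 80.58 and 121.43 against 144.70 and 154.19 TPM, narrowly missed the threshold (limma, adjusted p = 0.0524).

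Acute-phase and epithelial defence genes moved in both directions: 5 of 23 rose and 1 fell (all genes: 3.17% and 2.4%). Their median log2 fold change was 0.03. Serum amyloid A1 and A2, small apolipoproteins made in bulk during inflammation, rose most. SAA1 (chromosome 11, 18266174 to 18269977) was at 2.18 and 7.88 TPM in wild type and at 148.54 and 175.24 TPM in the labelled knockout, with a log2 fold change of 4.93 (standard error 0.54, limma, adjusted p = 0.000624). SAA2, its close neighbour, was at 0.75 and 4.89 TPM against 102.04 and 99.72 TPM (log2 fold change 4.99, limma, adjusted p = 0.000433). The 2 genes are near-identical in sequence, so how reads were divided between them is uncertain.

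C1R, the protease that starts the classical complement pathway, rose from 143.57 and 127.54 to 301.54 and 270.56 TPM (log2 fold change 1.07, limma, adjusted p = 0.00618). PIGR, which carries IgA across epithelia, was low throughout at 0.44 to 1.75 TPM, and its log2 fold change of 0.74 (limma, adjusted p = 0.0423) was lost whichever library was left out, at an adjusted p of up to 0.204. ORM1, the acute-phase plasma protein orosomucoid, fell from 14.28 and 24.82 to 3.19 and 2.71 TPM. Its log2 fold change was -2.33 (limma, adjusted p = 0.0102), and the call was lost without wild-type replicate 2 or labelled-knockout replicate 2 (adjusted p up to 0.0651). The fibrinogen chains FGA, FGB and FGG, which form the clot, had log2 fold changes of -0.51, -0.87 and -0.93 and were not called. In each, both labelled-knockout libraries lay below both wild-type libraries, as in 18.9% of all genes.

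Chemokine ligands gave 1 call in 12 measured genes. CXCL5, which attracts neutrophils through CXCR2, was at 585.94 and 545.90 TPM in wild type and at 1215.09 and 1527.58 TPM in the labelled knockout. This log2 fold change of 1.27 (limma, adjusted p = 0.0263) lost its call whichever library was left out (adjusted p up to 0.143) although the groups did not overlap. CXCL1, a ligand of the same receptor, was at 114.52 and 119.96 against 260.97 and 305.32 TPM and was not called (limma, adjusted p = 0.0798). In the list of IL-6 family signalling 1 of 18 was called: IL6ST, the shared receptor chain gp130, went from 96.75 and 79.81 to 143.53 and 129.93 TPM. The log2 fold change of 0.63 (limma, adjusted p = 0.0433) did not hold with any library left out (adjusted p up to 0.193).

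Of 22 complement genes and regulators, 2 rose, C1R and C2, and 0 fell (all genes: 3.17% and 2.4%). C2, the second component of the classical pathway, went from 8.01 and 6.52 to 18.11 and 19.16 TPM (log2 fold change 1.25, limma, adjusted p = 0.0248). That call was lost whichever library was left out (limma, adjusted p up to 0.113). C3, the central component, was at 513.16 and 478.97 against 1032.12 and 739.15 TPM and was not called (limma, adjusted p = 0.0977).

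**Figure D3:**
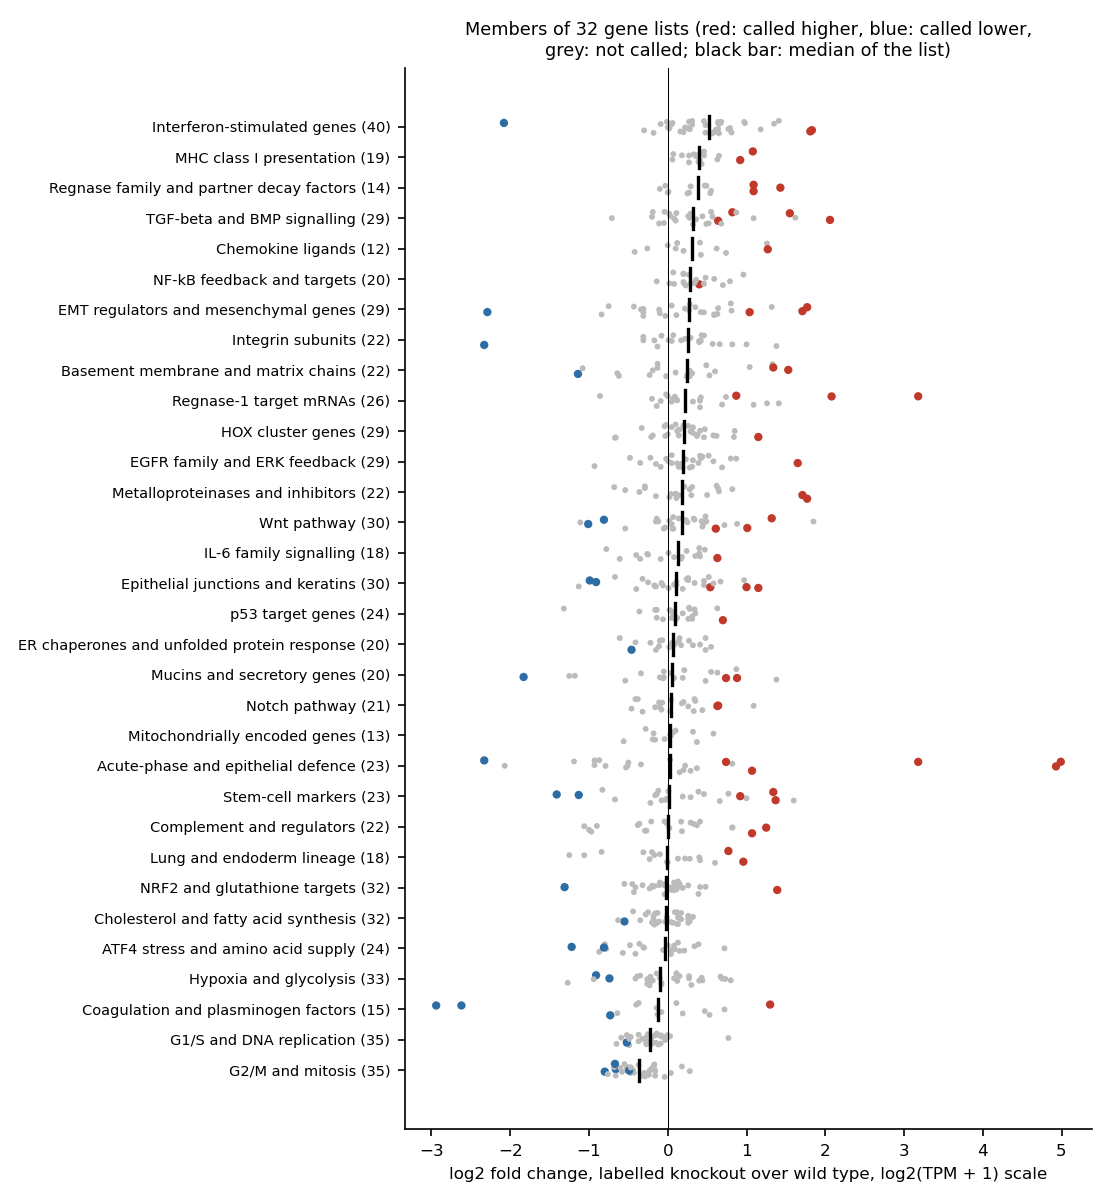
Log2 fold change of labelled knockout over wild type, on the log2(TPM + 1) scale, for each measured member of 32 gene lists in H2023 oncosphere culture, with the number of measured members in parentheses and the median as a black bar. Red and blue points passed the test; lists range in median from -0.37 for mitosis genes to 0.52 for interferon-stimulated genes, and most members are grey.

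Interferon-stimulated genes had the highest list median, 0.52, with 35 of 40 members positive and both labelled-knockout libraries above both wild-type libraries in 17, beside 28.6% of all genes. Even so, 2 rose and 1 fell. In some members labelled-knockout replicate 1 was near wild type. IFI27 was at 4.72 and 6.64 against 3.70 and 26.22 TPM, and MX1 at 7.65 and 13.68 against 10.35 and 27.29 TPM. In IFIH1 that replicate was the higher, at 38.03 and 37.67 against 65.10 and 54.60 TPM. ISG15 differed by replicate number rather than label, at 53.50 and 116.12 against 57.11 and 112.53 TPM. OAS1, which senses double-stranded RNA and activates RNase L, went from 26.89 and 32.69 to 81.40 and 138.31 TPM (log2 fold change 1.81, limma, adjusted p = 0.0059). It was not called without labelled-knockout replicate 2 (limma, adjusted p = 0.0516). TRIM22, an antiviral ubiquitin ligase, went from 0.62 and 0.35 to 4.54 and 3.96 TPM (log2 fold change 1.83, limma, adjusted p = 0.00941), and lost its call without wild-type replicate 2 or labelled-knockout replicate 1 (adjusted p up to 0.0551). BST2, or tetherin, which holds budding viruses at the cell surface, went the other way, from 43.70 and 43.27 to 7.32 and 12.36 TPM. Its log2 fold change was -2.08 (limma, adjusted p = 0.0406), with the call lost whichever library was left out (adjusted p up to 0.186).

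MHC class I presentation genes were all positive, 19 of 19, with a median of 0.40, and 2 rose. TAPBP, the peptide-loading chaperone tapasin, went from 84.42 and 118.06 to 181.64 and 248.90 TPM (log2 fold change 1.08, limma, adjusted p = 0.00618), a call lost without labelled-knockout replicate 2 (adjusted p = 0.0557). HLA-E, a non-classical class I molecule read by natural killer cells, went from 80.75 and 82.44 to 146.63 and 163.81 TPM (log2 fold change 0.92, limma, adjusted p = 0.0154), and was called in 1 of the 4 fits with a library left out (adjusted p up to 0.096). 10 of the 19 genes are on chromosome 6, most of whose genes were positive. After the median of each gene's chromosomal neighbourhood was subtracted, the list median was 0.05 and 0 of its genes were called in limma, against 0.52 and 3 for interferon-stimulated genes.

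The position pattern was broad. The 10657 genes with a mean of at least 5 TPM were divided in genome order into 211 blocks of about 50 neighbours, and the median log2 fold change of each block was taken. Block medians ran from -0.35 to 0.42 with an SD of 0.17, whereas differences between replicates of 1 group gave block medians with an SD of 0.08 in wild type and 0.07 in the labelled knockout. Over the 10657 genes the median was 0.07, 59.4% were positive, 4.0% rose and 3.1% fell. On chromosome 6 the median was 0.35, 88.2% of 516 genes were positive, and 79 rose (15.3%) while 5 fell (1%). Chromosome 2 was the reverse, with a median of -0.23, 86 falls (12.4%) and 5 rises (0.7%) among 691 genes. On chromosome 1 the 9 blocks from 149832659 to 248919946 had medians between -0.29 and -0.22, and those before them between -0.16 and 0.03. Genes of chromosome 22 had a median of -0.17.

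The same blocks moved in normal culture, measured in other libraries of the same clone: 195 of 211 block medians had the same sign in both cultures, and across blocks r was 0.93. In A549 oncosphere culture, another clone and line, r was -0.21. The A549 block medians had an SD of 0.12 and reached 0.62 on chromosome 2, in a block at -0.30 in H2023 oncospheres. These correlations describe blocks and carry no test. DNA was not measured in these files, and the part of position in the change of any single gene was not tested. With block medians subtracted, a setting chosen after seeing the data, limma called 596 genes (3.27%), 272 higher and 324 lower, of which 445 were among the 1014. 14 of the 15 largest rises and 15 of the 15 largest falls were among the calls. WFDC21P, a transcribed pseudogene, was the exception (limma, adjusted p = 0.0659), and it was also not called without wild-type replicate 2 or without either labelled-knockout replicate (adjusted p up to 0.217).

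**Figure D4:**
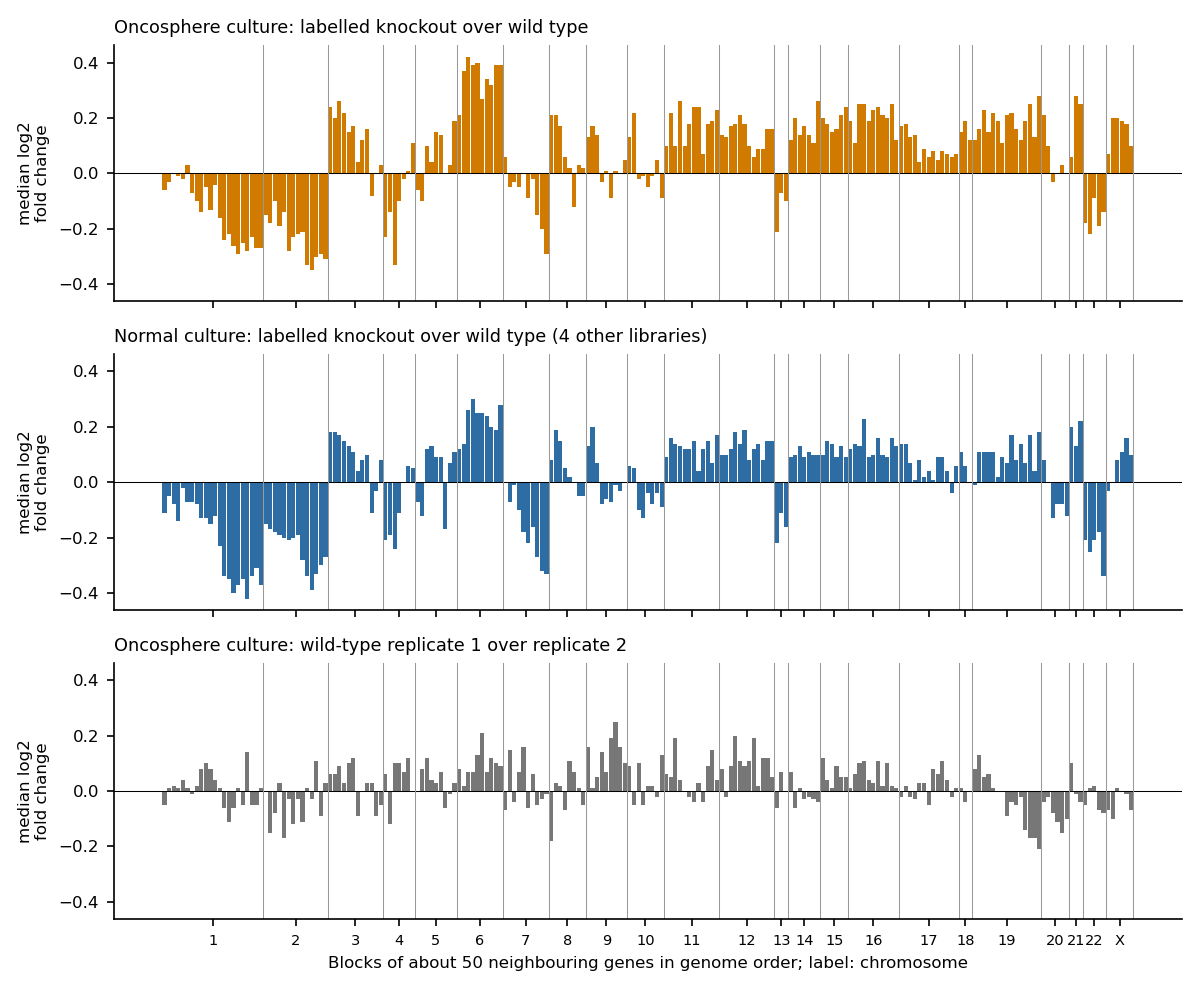
Median log2 fold change in blocks of about 50 neighbouring genes, in genome order with chromosomes labelled, for H2023 oncosphere culture (top), H2023 normal culture (middle) and the 2 wild-type oncosphere replicates against each other (bottom). Chromosome 6 stands high and chromosome 2 and the distal part of chromosome 1 low in both cultures, with block medians between -0.35 and 0.42 in the top panel (SD 0.17) and an SD of 0.08 in the bottom panel.

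Albumin had the largest fall among the named genes on the log2(TPM + 1) scale. As a ratio of mean TPM it was 28.7-fold lower, less than TM4SF20 at 78.4-fold, CNTN1 at 69.3-fold and NTS at 67.4-fold. ALB (chromosome 4, 73397114 to 73421412), the main plasma protein made by hepatocytes, was at 335.91 and 268.77 TPM in wild-type oncospheres and at 18.71 and 2.38 TPM in the labelled knockout. The fall was -5.21 on the log2 scale (standard error 0.60, limma, adjusted p = 0.000907). The labelled-knockout replicates were far apart, but both were well below wild type. RBP4, the plasma carrier of retinol, went from 245.40 and 313.03 to 44.91 and 9.24 TPM, a log2 fold change of -3.68 (limma, adjusted p = 0.00885). Its call was lost without wild-type replicate 2 or labelled-knockout replicate 2, at an adjusted p of up to 0.0628. APOE, the lipid-carrying apolipoprotein, fell from 63.37 and 130.35 to 11.42 and 9.66 TPM (log2 fold change -3.0, limma, adjusted p = 0.00452).

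Genes of metabolism were also among the largest falls. HPD, the enzyme for the second step of tyrosine breakdown, went from 89.57 and 105.79 to 1.88 and 5.45 TPM (log2 fold change -4.51, limma, adjusted p = 0.000105). AOX1, an aldehyde oxidase, went from 20.97 and 10.31 to 0.87 and 0.64 TPM (log2 fold change -3.17, limma, adjusted p = 0.00099). PPARGC1A, the coactivator that drives mitochondrial biogenesis, went from 25.35 and 58.59 to 1.42 and 4.02 TPM (log2 fold change -3.51, limma, adjusted p = 0.0011). In these 3 genes every labelled-knockout library was several-fold below every wild-type library.

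Coagulation and plasminogen factors had 1 rise and 3 falls among 15 measured genes (all genes: 3.17% and 2.4%). F5 and F7, clotting factors made mainly in liver, had log2 fold changes of -2.94 and -2.62 (limma, adjusted p = 0.000165 and 0.00144), with labelled-knockout values of 1.41 and 3.15 TPM for F5 and 1.71 and 0.62 TPM for F7. Wild-type values were 25.16 and 21.48 TPM for F5 and 10.73 and 13.22 TPM for F7. F12, the contact factor, went from 15.96 and 15.56 to 8.55 and 9.71 TPM, with a log2 fold change of -0.73 (limma, adjusted p = 0.0191) that lost its call whichever library was left out (adjusted p up to 0.101). THBD, thrombomodulin, the anticoagulant receptor for thrombin, rose instead, from 2.60 and 3.56 to 7.51 and 10.76 TPM (log2 fold change 1.30, limma, adjusted p = 0.00425).

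CNTN1, NTS and SCG2, known from neurons and hormone-secreting cells, were also among the largest falls. CNTN1, a neuronal cell-adhesion molecule, went from 18.08 and 28.36 to 0.37 and 0.30 TPM, a log2 fold change of -4.15 (standard error 0.22, limma, adjusted p = 4.34e-06). The peptide precursor NTS (neurotensin) went from 31.32 and 92.62 to 1.47 and 0.37 TPM, and the secretory granule protein SCG2 from 11.48 and 18.83 to 1.31 and 1.77 TPM. NTS and SCG2 had log2 fold changes of -4.90 and -2.64 (limma, adjusted p = 0.0251 and 0.018). Both lost the call without wild-type replicate 2 or either labelled-knockout replicate, at an adjusted p of up to 0.13 for NTS and 0.0936 for SCG2. The 4 measured neuroendocrine markers CHGA, CHGB, SYP and UCHL1 gave 0 calls, 3 with a negative log2 fold change and 1 with a positive one. UCHL1 was at 697.69 and 649.89 against 558.70 and 555.70 TPM. CHGB went the other way, from 4.05 and 8.70 to 13.16 and 10.54 TPM (log2 fold change 0.87, limma, adjusted p = 0.274).

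TM4SF20, TC2N and NLRP1 were among the largest falls too. TM4SF20, a tetraspan membrane protein, went from 56.30 and 48.76 to 0.52 and 0.82 TPM, and TC2N, a C2-domain protein, from 37.91 and 39.28 to 2.73 and 3.87 TPM. NLRP1, an inflammasome sensor of epithelial cells, went from 21.18 and 13.63 to 0.36 and 1.40 TPM. Their log2 fold changes were -5.0, -3.22 and -3.32 (limma, adjusted p = 0.000105, 0.000181 and 0.000105), and each was called in all 4 fits with 1 library left out.

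The largest rises outside inflammation covered membrane, channel and secreted proteins. VNN2, a GPI-anchored pantetheinase of leukocytes and epithelia, went from 0.58 and 1.54 to 13.04 and 25.34 TPM (log2 fold change 3.26, limma, adjusted p = 0.000105). PXDN, the peroxidase that crosslinks collagen IV, went from 0.39 and 0.45 to 8.68 and 7.98 TPM (log2 fold change 2.72, limma, adjusted p = 0.00223). KCNMA1, the pore of the large-conductance calcium-activated potassium channel, went from 1.70 and 1.19 to 10.88 and 17.58 TPM (log2 fold change 2.61, limma, adjusted p = 0.000105). VNN2, PXDN and KCNMA1 did not exceed 1.70 TPM in wild type and were at 7.98 TPM or more in the labelled knockout. ZG16B, a secreted lectin, went from 4.11 and 3.87 to 24.87 and 35.09 TPM (log2 fold change 2.61, limma, adjusted p = 0.000105). The tetraspanin TSPAN1 went from 17 and 13.64 to 50.42 and 115.57 TPM (log2 fold change 2.25, limma, adjusted p = 0.00215). The remaining rises, RFTN1, LINC01193, TM4SF18, LINC01116, ACVRL1 and SLC43A3, had log2 fold changes between 2.09 and 2.34, and ACVRL1 encodes a receptor of the BMP family.

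TGF-beta and BMP signalling had 4 rises and 0 falls among 29 genes (all genes: 3.17% and 2.4%). The list's median log2 fold change was 0.32. The ligand BMP4 went from 5.0 and 1.64 to 15.35 and 15.81 TPM (log2 fold change 2.06, limma, adjusted p = 0.00499). The ligand TGFB1 went from 26.71 and 27.78 to 45.86 and 40.58 TPM (log2 fold change 0.64, limma, adjusted p = 0.0049). TGFBR2, the receptor that binds TGF-beta first, went from 104.57 and 60.69 to 236.23 and 235.76 TPM (log2 fold change 1.55, limma, adjusted p = 0.00266). These 3 were called whichever library was left out, but BMP4 was not called in the fit of the 8 H2023 libraries (limma, adjusted p = 0.0716). TGFB1 missed the threshold in the authors' deposited table (adjusted p = 0.158). SKIL, a feedback inhibitor of SMAD proteins, went from 10.63 and 12.13 to 16.84 and 25.65 TPM (log2 fold change 0.82, limma, adjusted p = 0.0257), but was called only without labelled-knockout replicate 1 when 1 library was left out (adjusted p up to 0.164 in the others).

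Stem-cell markers, the genes an oncosphere culture is meant to enrich, were split: 3 of 23 rose and 2 fell (all genes: 3.17% and 2.4%). Their median log2 fold change was 0.01. TP63, a master regulator of basal epithelial cells, rose from 1.30 and 1.66 to 4.06 and 7.08 TPM (log2 fold change 1.37, limma, adjusted p = 0.00618). SOX9, a transcription factor of lung progenitors, rose from 30.52 and 22.70 to 67.40 and 69.09 TPM (log2 fold change 1.34, limma, adjusted p = 0.00735), with the call lost without wild-type replicate 2 or labelled-knockout replicate 2 (adjusted p up to 0.0528). SOX2, a pluripotency and airway progenitor factor, was low in wild type at 2.33 and 1.24 TPM and was at 0.03 and 0.02 TPM in the labelled knockout. A log2 fold change of -1.41 (limma, adjusted p = 0.0235) was called in 1 of the 4 fits with a library left out (adjusted p up to 0.121). NES, the progenitor filament nestin, fell from 3.88 and 3.16 to 1.04 and 1.09 TPM (log2 fold change -1.13, limma, adjusted p = 0.00126). The third rise, named after its values were seen, was CD44, the hyaluronan receptor, from 415.49 and 247.10 to 734.14 and 503.92 TPM (log2 fold change 0.92, limma, adjusted p = 0.0327, or 0.0709 with block medians subtracted).

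Lineage genes of lung and endoderm gave 2 rises in 18 and a median of -0.01. ABCA3, the lipid pump of alveolar type II cells, went from 25.02 and 30.01 to 51.38 and 57.18 TPM (log2 fold change 0.96, limma, adjusted p = 0.0102), with the call lost without wild-type replicate 1 or labelled-knockout replicate 2 (adjusted p up to 0.0725). GATA6, an endodermal transcription factor, had a log2 fold change of 0.77 (limma, adjusted p = 0.0423) and lost its call whichever library was left out (adjusted p up to 0.214).

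Of 30 genes for epithelial junctions and keratins, 3 rose and 2 fell (all genes: 3.17% and 2.4%). The paired simple-epithelial keratins KRT8 and KRT18 were among the most abundant transcripts. KRT8 went from 1892.40 and 1883.14 to 3712.77 and 3828.01 TPM, and KRT18 from 1070.14 and 1054.63 to 2286.14 and 2427.61 TPM. Replicates of both keratins were close together, and the limma log2 fold changes were 1.00 and 1.15 (adjusted p = 0.0294 and 0.0263). Their annotated spans overlap on opposite strands, and whether counting used strand is not given in the sources used here. Both calls were lost whichever library was left out (limma, adjusted p up to 0.121 and 0.117) and with block medians subtracted (adjusted p = 0.095 and 0.077). DSP, the desmosomal plaque protein desmoplakin, went from 4.17 and 5.92 to 1.48 and 2.64 TPM (log2 fold change -0.99, limma, adjusted p = 0.0137), and the tight-junction claudin CLDN4 from 4.17 and 4.65 to 1.68 and 2.07 TPM (log2 fold change -0.91, limma, adjusted p = 0.0154). DSP lost its call without wild-type replicate 2 or labelled-knockout replicate 1, and CLDN4 in all but the fit without wild-type replicate 1 (limma, adjusted p up to 0.0868 and 0.0911). PKP3, the desmosomal plakophilin, named after its values were seen, had a log2 fold change of 0.54 (limma, adjusted p = 0.0252, or 0.0794 with block medians subtracted).

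Regulators and effectors of epithelial-mesenchymal transition gave 3 rises and 1 fall in 29 (all genes: 3.17% and 2.4%), and their median was 0.27. The matrix metalloproteinases MMP14 and MMP2, of which the first activates the second, went from 15.34 and 7.47 to 37.98 and 40.12 TPM and from 46.10 and 13.23 to 110.28 and 63.22 TPM. Their log2 fold changes were 1.77 and 1.71 (limma, adjusted p = 0.0167 and 0.0423). COL5A2, a fibrillar collagen chain, fell from 36.03 and 53.88 to 7.46 and 9.06 TPM (log2 fold change -2.29, limma, adjusted p = 0.0126). The transcription factor TWIST1 had a log2 fold change of 1.04 (limma, adjusted p = 0.0339). In the authors' deposited table the adjusted p was 0.396 for MMP2 and 0.276 for TWIST1, against 6.35e-05 for MMP14 and 4.15e-16 for COL5A2. MMP14, MMP2 and TWIST1 were called only without wild-type replicate 1 when a library was left out, and so was COL5A2 (limma, adjusted p up to 0.104, 0.214, 0.184 and 0.0732 in the other fits).

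Basement membrane chains and integrins, the matrix and its receptors, gave few calls. COL4A1 and COL4A2, neighbouring genes whose products assemble into collagen IV, went from 7.95 and 3.95 to 17.24 and 14.61 TPM and from 10.51 and 5.0 to 24.66 and 21.58 TPM. COL4A1 and COL4A2 had log2 fold changes of 1.34 and 1.53 (limma, adjusted p = 0.0447 and 0.0179), and were called only without wild-type replicate 1 when a library was left out (adjusted p up to 0.225 and 0.105 otherwise). The annotated spans of these genes overlap on opposite strands, as those of the keratins do. PXDN, the enzyme that crosslinks their product, was among the largest rises. COL4A4, a chain of another collagen IV network, had a log2 fold change of -1.14 (limma, adjusted p = 0.0211). It lost its call without wild-type replicate 2 or labelled-knockout replicate 1 (adjusted p up to 0.13). Of 22 integrin subunits, ITGA4 alone was called, at 4.92 and 4.06 against 0 and 0.18 TPM (log2 fold change -2.33, limma, adjusted p = 0.000311).

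Genes of proliferation had mostly negative log2 fold changes and few calls. In the G2/M and mitosis list 32 of 35 had a negative log2 fold change, 26 had both labelled-knockout libraries below both wild-type libraries (18.9% of all genes did), the median was -0.37, and 4 fell: BUB1, KIF2C, CDK1 and MYBL2. CDK1, the kinase that drives entry into mitosis, went from 63.35 and 47.19 to 31.07 and 37.60 TPM (log2 fold change -0.66, limma, adjusted p = 0.0257). BUB1, a kinase of the spindle checkpoint, went from 23.42 and 21.88 to 12.65 and 12.44 TPM (log2 fold change -0.80, limma, adjusted p = 0.0166). BUB1, KIF2C and MYBL2 lost the call whichever library was left out (limma, adjusted p up to 0.0853, 0.13 and 0.149), and CDK1 in all but the fit without wild-type replicate 2 (adjusted p up to 0.148).

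In the G1/S and DNA replication list 32 of 35 were negative, with a median of -0.23 and 1 call. RFC3, a subunit of the clamp loader of replication, went from 17.78 and 17.65 to 12.61 and 11.51 TPM (log2 fold change -0.52, limma, adjusted p = 0.028), lost with any library left out (adjusted p up to 0.144). In normal culture the medians of these lists were 0.14 for mitosis and 0.18 for replication.

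The other signalling lists each gave a handful of calls. In the EGFR and ERK list 1 of 29 rose, DUSP6, the phosphatase that ERK induces and that switches ERK off. DUSP6 went from 10.28 and 14.72 to 40.49 and 41.04 TPM (log2 fold change 1.65, limma, adjusted p = 0.000756) and was called whichever library was left out. Of 30 Wnt pathway genes 3 rose and 2 fell (all genes: 3.17% and 2.4%). The secreted antagonist SFRP1 had a log2 fold change of 1.32 (limma, adjusted p = 0.0322) and the antagonist family member DKK3 one of 1.01 (adjusted p = 0.0393), and both lost the call whichever library was left out (adjusted p up to 0.157 and 0.177). The ligands WNT5A and WNT4 had log2 fold changes of -1.01 and -0.81 (limma, adjusted p = 0.0247 and 0.0102), called only without wild-type replicate 1 when 1 library was left out (adjusted p up to 0.133 and 0.0583 otherwise). Notch ligands DLL4 and JAG1 had log2 fold changes of 0.64 and 0.63 (limma, adjusted p = 0.0203 and 0.0273), each called in 1 of 4 fits with a library left out (adjusted p up to 0.125 and 0.146), and no other of 21 Notch genes was called.

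Metabolic and stress lists were close to the background share. Hypoxia and glycolysis gave 0 rises and 2 falls in 33. GPI, the enzyme of the second glycolytic step, went from 464.25 and 539.62 to 296.47 and 301.41 TPM, and PFKP, a phosphofructokinase, from 41.15 and 56.21 to 22.67 and 27.94 TPM. The limma log2 fold changes of GPI and PFKP were -0.74 and -0.91 (adjusted p = 0.0326 and 0.0458), lost whichever library was left out (adjusted p up to 0.148 and 0.209). The list of ATF4 stress and amino acid supply gave 2 falls in 24. SLC7A5, the large neutral amino acid transporter LAT1, went from 229.80 and 284.65 to 108.48 and 110.64 TPM (log2 fold change -1.22, limma, adjusted p = 0.023), called only without wild-type replicate 1 when a library was left out (adjusted p up to 0.111). MTHFD2, a mitochondrial folate enzyme, had a log2 fold change of -0.81 (limma, adjusted p = 0.0373), lost whichever library was left out (adjusted p up to 0.136).

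In the NRF2 and glutathione list GPX3, the secreted glutathione peroxidase, rose from 2.82 and 3.84 to 8.12 and 12.91 TPM (log2 fold change 1.39, limma, adjusted p = 0.00768), lost without labelled-knockout replicate 2 (adjusted p = 0.068). UGT1A6, a glucuronosyltransferase that shares its last exons with other UGT1A genes, had a log2 fold change of -1.31 (limma, adjusted p = 0.0216) and was called only without labelled-knockout replicate 2 (adjusted p up to 0.135 otherwise). No other of the 32 was called by limma. The authors' deposited table calls 2 of the 32, UGT1A6 among them (adjusted p = 0.018) and not GPX3 (adjusted p = 0.133). Cholesterol synthesis (PMVK, lower), endoplasmic reticulum chaperones (PDIA4, lower), p53 targets (TP53INP1, higher) and HOX genes (HOXD8, higher) gave 1 call each, among 32, 20, 24 and 29 genes. Their log2 fold changes were -0.55, -0.46, 0.70 and 1.15 (limma, adjusted p = 0.0148, 0.0458, 0.028 and 0.0301). With block medians subtracted PMVK and PDIA4 were at -0.33 and -0.17 and not called (limma, adjusted p = 0.131 and 0.525), while TP53INP1 and HOXD8 were called. PMVK was called in 2, HOXD8 in 1 and PDIA4 and TP53INP1 in 0 of the 4 fits with a library left out (limma, adjusted p up to 0.0938, 0.161, 0.189 and 0.111). Mucins and secretory genes gave 2 rises, MUC16 and PIGR, and 1 fall, BPIFB1, in 20. BPIFB1, an airway secretory protein, went from 15.58 and 25.89 to 3.40 and 7.03 TPM (log2 fold change -1.83, limma, adjusted p = 0.00643) and was called whichever library was left out, while MUC16 was called only without wild-type replicate 2 (adjusted p up to 0.242 otherwise). Of 22 metalloproteinases and inhibitors MMP14 and MMP2 were called. None of the 13 mitochondrially encoded genes was called, with limma log2 fold changes between -0.56 and 0.58.

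Markers of the labelled tissue and of other cell types were checked. The keratins KRT7, KRT8, KRT18 and KRT19 were at 406.22 TPM or more in every library, and the adhesion molecules EPCAM and CDH1 between 12.73 and 51.02 TPM. NAPSA, an alveolar marker, was at 1.67 to 2.79 TPM, and NKX2-1 and SFTPB had no row. Measured fibroblast markers (5 of 8) summed to 7.8 and 12.4 TPM in wild type and 6.6 and 5.3 TPM in the labelled knockout, and PECAM1, the only endothelial marker measured, was at 0.42 to 1.04 TPM. Of 3 haematopoietic markers, LAPTM5 and CD14 stayed below 1 TPM and CD68, a lysosomal protein that epithelial cells also express, was at 30.72 to 129.02 TPM. None of these other cell types' markers was called by limma. The fibroblast marker COL1A1, at 6.06 and 8.46 against 3.95 and 3.74 TPM, had a limma adjusted p of 0.191 and one of 0.00596 in the authors' deposited table.

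Normal culture, measured in 4 other libraries, showed much of the same difference. There 546 genes were called (3%), 187 higher (1.03%) and 359 lower (1.97%). 249 genes were called in the same direction in both cultures, 24.6% of the oncosphere calls and 45.6% of the normal-culture calls. The sign in normal culture matched for 941 of the 1014 oncosphere calls (92.8%), against 67% of all genes. Among the 30 genes with the largest changes, 9 rises and 10 falls were also called in normal culture. HPD, for example, was at 66.18 and 107.89 TPM in wild type and 1.81 and 1.33 TPM in the labelled knockout there (log2 fold change -5.06, limma, adjusted p = 2.84e-05). CNTN1 had a log2 fold change of -3.79 there (limma, adjusted p = 1.26e-05).

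The rises of SAA1, SAA2 and LCN2 and the fall of ALB were not called in normal culture. LCN2 was at 13.45 and 14.40 TPM in wild type and at 19.16 and 10.87 TPM in the labelled knockout (log2 fold change 0.05, limma, adjusted p = 0.984). SAA1 was at 2.16 and 3.50 against 10 and 8.84 TPM (log2 fold change 1.46, limma, adjusted p = 0.18). ALB was at 1.47 and 3.57 against 0.32 and 0.12 TPM (log2 fold change -1.47, limma, adjusted p = 0.228). However, the test of the difference between cultures did not pass for LCN2, SAA1 or ALB, with limma adjusted p = 0.271 for each.

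That test called 1 gene (0.00549%), with 1270 genes (6.97%) at an unadjusted p under 0.05. The gene was GPX2, the gastrointestinal glutathione peroxidase, at 736.40 and 793.62 against 745.46 and 1117.27 TPM in oncospheres and at 275.42 and 289.61 against 51.84 and 46.52 TPM in normal culture. Its log2 fold change was 0.26 in oncospheres (limma, adjusted p = 0.414) and -2.50 in normal culture (adjusted p = 2.84e-05), and the difference of 2.76 had a limma adjusted p of 0.00104 (0.193 with the 8 H2023 libraries alone). GPX2 was thus lower in the labelled knockout in normal culture, while its oncosphere groups were close together with a wide gap between the labelled-knockout replicates. 3 genes were called in opposite directions in the cultures. IFNGR1, the ligand-binding chain of the interferon-gamma receptor, had log2 fold changes of 0.68 in oncospheres and -0.79 in normal culture (limma, adjusted p = 0.0301 and 0.0213). PLPP3, a lipid phosphatase, had 0.81 and -0.80 (limma, adjusted p = 0.0154 and 0.0201), and ITGBL1, a secreted integrin-like protein, -0.75 and 1.15 (limma, adjusted p = 0.0475 and 0.00935). IFNGR1 lies in a chromosome 6 block with a median of 0.39, and with block medians subtracted its oncosphere log2 fold change was 0.28 and not called (limma, adjusted p = 0.411). For these 3 the difference between cultures itself missed the threshold (limma, adjusted p = 0.107, 0.0862 and 0.0882). ITGBL1 and IFNGR1 lost the oncosphere call whichever library was left out, and PLPP3 in all but the fit without wild-type replicate 2 (limma, adjusted p up to 0.153, 0.168 and 0.0872).

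**Figure D5:**
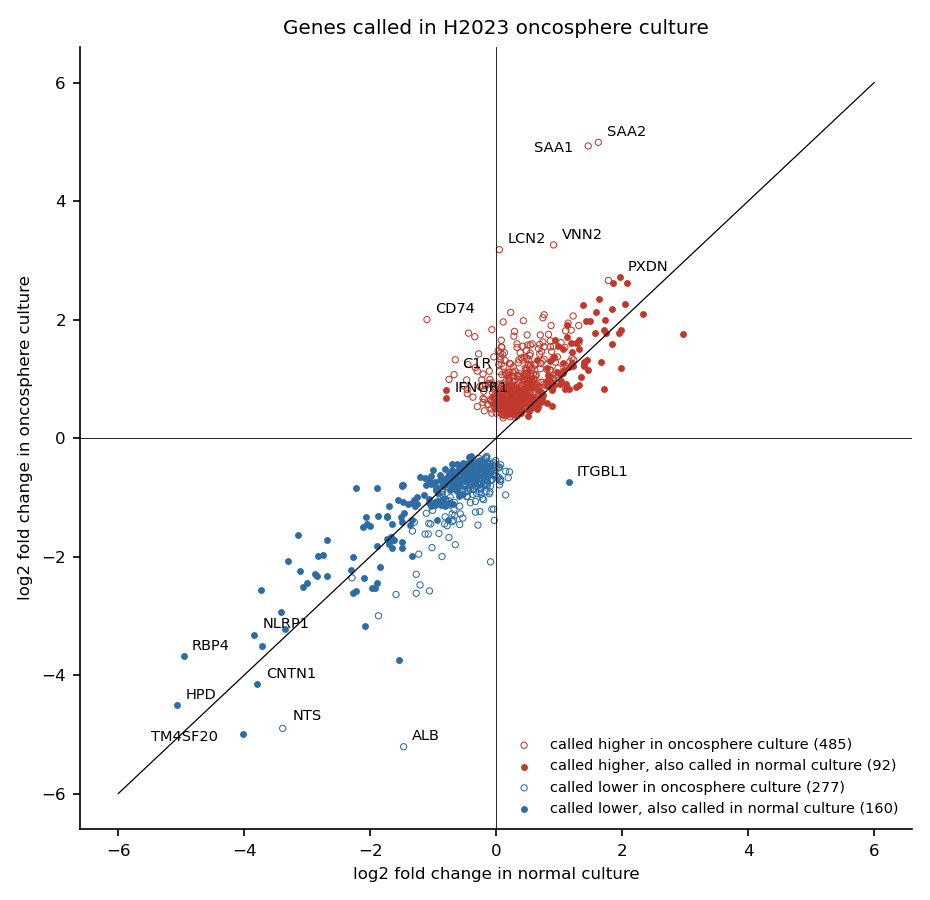
Log2 fold change of labelled knockout over wild type in normal culture (horizontal axis) and oncosphere culture (vertical axis), on the log2(TPM + 1) scale, for the 1014 genes called in oncosphere culture; filled points were also called in normal culture and the diagonal marks equality. HPD, CNTN1 and RBP4 lie at strongly negative values on both axes, whereas SAA1, SAA2, LCN2 and ALB lie farther from 0 on the oncosphere axis, a difference that did not pass the test between cultures.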

How the data were processed

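The libraries were read from the H2023 tables deposited by the authors, in which the expression columns are TPM per library, per the file headers. HISAT2, StringTie and the build GRCh38 are named in the submitters' processing notes, and their roles, versions and annotation are not given in the sources used here. Per the file headers, the deposited tables also hold a mean normalized count over libraries (a signal), a log2 fold change, a test statistic (a score) and a p-value with its adjusted form, under DESeq2's column names. In the deposited oncosphere table that statistic and the fold change differ in sign throughout (18361 of 18361 rows), so only TPM was used for effects. The authors' adjusted p-value, missing for 2121 genes, served as an alternative. Of 18361 rows, 119 identifiers recurred, leaving 18227 genes, of which 15590 had symbols in the table and 867 from a list of Ensembl names. 0 per-sample columns were left unused.

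Differences were tested with limma 3.58.1 in R 4.3.3 on log2(TPM + 1), letting the variance follow the mean, with 1 mean for each of 8 groups of 2 libraries, two-sided, with Benjamini-Hochberg adjustment over all genes, a threshold of 0.05 and no filter on low values. Fold changes on this scale understate the change of low genes. The fit assumes that replicates of all groups vary alike. Over 14823 genes the SD between replicates was 0.31 in wild-type and 0.27 in labelled-knockout H2023 oncospheres, against 0.21 to 0.26 in the other groups. The pooled spread may therefore be too small for this contrast, and its p-values too low. Simulated data held 18227 genes, 200 of them changed. The fit recovered 63 of 100 genes changed by 1 on the log2 scale and 98 of 100 changed by 2, with 12 false calls. The simulated noise was independent between libraries, with 1 spread per gene in all groups. Changed genes were drawn from those with a mean of at least 5 TPM. The simulation thus takes equal spread as given and cannot test it. Named genes are ZC3H12A, the 15 largest rises and falls among called genes that reach 5 TPM in a group and whose groups do not overlap, up to 4 called members of each of 32 gene lists and 5 marker lists (847 genes in all), and the genes of the culture contrast. Members not called, the 3 genes called in opposite directions and the genes of lists without calls were named after their values were seen. The comparison, the lists and this rule were chosen with earlier results of these data known. Coordinates are from GENCODE 29 and promoter windows from RefSeq (GRCh38.p14). 1 of the 15 largest falls is not reported here.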

Additional observations from a re-analysis of the deposited data

Results flagged for a closer look

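The difference between labelled knockout and wild type depended on the culture for GPX2 in the fit of all 16 libraries, by a test of the difference itself. The log2 fold change in oncosphere culture exceeded that in normal culture by 2.76 (limma interaction, adjusted p = 0.00104). With the 8 H2023 libraries alone the difference was not called (limma, adjusted p = 0.193). In normal culture both labelled-knockout libraries, at 51.84 and 46.52 TPM, were below both wild-type libraries, at 275.42 and 289.61 TPM. In oncospheres the values were 736.40 and 793.62 TPM in wild type and 745.46 and 1117.27 TPM in the labelled knockout, and the groups overlapped. No other gene passed this test in the fit of all 16 libraries.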

How the results depend on the processing

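The number of called genes depended most on how the spread was estimated. In oncosphere culture limma called 1014 genes with all 16 libraries, 281 with the 8 H2023 libraries and 0 with the 4 libraries of the contrast (2828 genes, 15.5%, at an unadjusted p under 0.05; 816 in the authors' deposited table). Leaving out 1 library gave 314 to 600, fits in which the lone sample of a group is assumed to vary like the other groups. With block medians subtracted, chosen after seeing the data, the number was 596. In normal culture the 546 calls became 147 with the 8 H2023 libraries, 0 with 4 (3314 genes at an unadjusted p under 0.05), 355 with block medians subtracted and 1665 in the authors' deposited table. For the difference between cultures, 1 gene became 0 with the 8 H2023 libraries alone (1294 genes at an unadjusted p under 0.05), 4 with a mean of at least 1 TPM, 7 with the replicate block and 1 to 10 when 1 library was left out. The log2 fold change of ZC3H12A ranged from 1.21 to 1.66 when 1 library was left out, and with 4 libraries it was 1.43 but not called (limma, adjusted p = 0.221). GPX2 in oncospheres, not called in any fit, ranged from -0.04 without labelled-knockout replicate 2 to 0.55 without labelled-knockout replicate 1. Apart from the smaller numbers of samples, the cause of these changes was not tested.

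With the replicate number as a block limma called 1289 oncosphere genes. Same-numbered oncosphere libraries deviated together (r = 0.46), but 2 pairs do not establish a pairing, and the other pairs of groups gave 0.03 to 0.13. All 99 named genes with a call kept their direction under each alternative run. Their groups did not overlap, so leaving out 1 library could not reverse it, nor could a fit that changes only the spread. With the 8 H2023 libraries 49 of the 99 lost their call (limma), among them ACVRL1, SLC43A3, TP63, BMP4 and BPIFB1, which were called in every fit with 1 library left out. With the 4 libraries of the contrast all 99 lost it, and 32 were called under every other alternative. With block medians subtracted 26 of the 99 lost their call (limma), among them C2, PMVK, PDIA4, COL4A4, UGT1A6, BUB1 and RFC3. The authors' adjusted p missed the threshold for 18 of the 99, among them MMP2, TWIST1, SKIL, JAG1, DLL4, GATA6 and TNIP1. TPM without counts gives no interval for low values.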
